A study of Mus musculus with 6 samples.

Results

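The genes described here encode the proteins of the mitochondrial ribosome. They were taken by symbol, as every gene whose symbol is Mrpl or Mrps followed by a number and at most 1 further letter, which gave 77 of the 24346 genes in the table: 48 Mrpl genes, named for the large subunit, and 29 Mrps genes, named for the small subunit. Their mRNA was measured in epididymal white adipose tissue (WAT), the fat pad beside the epididymis, of 3 AdArmc5 KO and 3 Armc5 flox mice (6 RNA-seq libraries). Both groups carried LoxP sites around exons 2 and 3 of *Armc5*, from an allele whose lacZ and Neo cassettes had been taken out with CAG-FLPe, and AdArmc5 KO carried *Adipoq-Cre* as well, so that the deletion was aimed at adipocytes and the other cells of the pad kept the gene. The mice were littermates, 24 weeks old, fasted for 24 h and refed for 6 h. The question put to these genes was whether their mRNA differed between the genotypes, with the large and the small subunit taken separately.

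Mitochondria carry their own ribosome, which translates the few mRNAs of mitochondrial DNA into core subunits of the respiratory chain and of ATP synthase. Its rRNAs are made inside the organelle, whereas all of its proteins are encoded in the nucleus, translated in the cytosol and imported. The large subunit forms the peptide bond and holds the exit tunnel, and the small subunit binds the mRNA and decodes it. In adipocytes mitochondria supply acetyl groups and ATP for lipid synthesis, and their number increases as preadipocytes become fat cells.

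Symbols and structures differ for a few members. Mrps18a and Mrps30 are named for the small subunit, but their proteins (mL66 and mL65 in the structural nomenclature) sit in the large one, and Mrps36 is now regarded as a part of the alpha-ketoglutarate dehydrogenase complex. Counted by structure, 50 members belonged to the large subunit and 26 to the small one. In this nomenclature 46 members have a name beginning with u or b, which marks a counterpart in bacteria, and 30 have a name beginning with m, given to proteins named from mitochondria.

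The libraries held 25320770 to 38311549 fragments, and a member rested on 126 to 4159 fragments in a library. *Armc5* itself had an FPKM (fragments scaled to exon length and to the size of the library) of 3.66, 4.48 and 5.82 in AdArmc5 KO replicates 1, 2 and 3, against 5.12, 5.66 and 5.58 in Armc5 flox. The library labelled AdArmc5 KO replicate 3 was thus above every Armc5 flox library for the targeted gene, which other cells of the pad also express, and it is given by its label in what follows. The 12 adipocyte markers (Adipoq, Plin1 and others) were present in every library, with a summed level of 31895 to 50300 FPKM in AdArmc5 KO, against 42132 to 60324 FPKM in Armc5 flox. Markers of other cells were uneven. Foxj1, which is made in ciliated cells, had 0.330, 62.4 and 0.637 FPKM in AdArmc5 KO, against 76.0, 0.208 and 0.708 FPKM in Armc5 flox. Akr1b7, abundant in the vas deferens, had 3122 FPKM in the library labelled AdArmc5 KO replicate 3 and 17.4 FPKM in Armc5 flox replicate 3, against at most 1.33 FPKM in the other 4 libraries, and of the 10 markers of vas deferens and epididymis 1 was at 0 in every library. The part of these cells in the results below was not tested. Counts and medians without such libraries are given for the members as a whole, and medians alone for the lists of genes that serve the ribosome; other sets and single genes are given mostly without Armc5 flox replicate 3 alone.

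The 77 members lie on 17 chromosomes, with 10 on chromosome 11. Their promoters were searched for short motifs, including those of factors known to drive genes of mitochondrial proteins. RefSeq windows of GRCm38.p6, from 250 bases before to 50 bases after a transcript start, were found for 68 members. The letters CCGGAAG, recognised by the ETS factor GABP, stood in 24 of these windows on either strand (35.3%), against 9.12% of all 27025 mouse windows and 18.2% of the 10059 windows of genes tested here. AAGATGGC, recognised by YY1, stood in 12 windows (17.6%), against 2.88% of all windows and 4.76% of those of tested genes. GCGCATGCGC, the palindromic site of nuclear respiratory factor 1, stood in 3 windows (4.41%), against 0.977% and 2.08%. TGCGCA, which shares the letters TGCGC with that site but is not contained in it, stood in 20 windows (29.4%), against 8.06% and 14.4%. CCAAT was about as frequent in members (39.7%) as in all windows (37.9%) and in those of tested genes (38.3%). GGGCGG, the GC box, stood in 34 of the 68 members' windows, in 35.9% of all windows and in 64.7% of those of tested genes, and CACGTG in 7.35%, 7.24% and 10.4%. A match describes the letters only, and no binding was measured in this tissue by these libraries.

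The stretches of 150 bases that end at the transcript start are shown for 6 members, 5′ to 3′ on the strand of the gene, with CCGGAAG or GCGCATGCGC (either strand) in capitals. Mrps26, Mrps18a and Mrpl34 stand for the members with CCGGAAG whose level varied strongly between libraries, Mrpl39 for those with GCGCATGCGC, and Mrpl12 and Mrps6, which have neither motif in this stretch, were the members with the highest and the lowest level in Armc5 flox replicate 3 relative to the other libraries. Mrpl34 and Mrpl39 are named here for their motifs.
Mrps26: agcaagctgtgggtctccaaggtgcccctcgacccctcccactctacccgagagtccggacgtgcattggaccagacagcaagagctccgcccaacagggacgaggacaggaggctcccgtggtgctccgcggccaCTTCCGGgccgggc
Mrps18a: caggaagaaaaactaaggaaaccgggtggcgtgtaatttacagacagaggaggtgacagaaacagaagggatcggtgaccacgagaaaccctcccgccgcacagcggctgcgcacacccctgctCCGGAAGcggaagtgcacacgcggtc
Mrpl34: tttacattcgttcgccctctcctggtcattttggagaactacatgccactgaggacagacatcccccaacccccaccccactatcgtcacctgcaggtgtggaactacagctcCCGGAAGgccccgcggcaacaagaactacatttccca
Mrpl39: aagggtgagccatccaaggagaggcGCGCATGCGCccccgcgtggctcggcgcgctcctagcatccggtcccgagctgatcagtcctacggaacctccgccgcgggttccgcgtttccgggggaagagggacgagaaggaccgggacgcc
Mrpl12: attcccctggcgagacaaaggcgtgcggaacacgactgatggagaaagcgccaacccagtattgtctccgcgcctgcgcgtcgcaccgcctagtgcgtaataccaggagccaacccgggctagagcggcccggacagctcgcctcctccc
Mrps6: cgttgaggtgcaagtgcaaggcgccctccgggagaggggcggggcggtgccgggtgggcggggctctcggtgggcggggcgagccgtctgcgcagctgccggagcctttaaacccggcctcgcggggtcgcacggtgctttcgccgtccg
In order, they are chr2:130563607-130563756 (+), chr17:46110854-46111003 (+), chr8:71464776-71464925 (+), chr16:84735245-84735394 (-), chr11:120484487-120484636 (+) and chr16:92058186-92058335 (+). The motif began 14 bases before the start in Mrps26, 26 bases before it in Mrps18a, 37 in Mrpl34 and 125 in Mrpl39.

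All 77 members passed the filter on low values (FPKM of 1 or more in 3 or more libraries), as did 12670 genes in all. Mean levels over the 6 libraries ran from 4.03 to 121 FPKM with a median of 31.2 FPKM, and 42 members had a mean of at least 30 FPKM. The median member of each subunit was close, at 31.6 FPKM for Mrpl and 29.6 FPKM for Mrps genes.

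**Figure D1:**
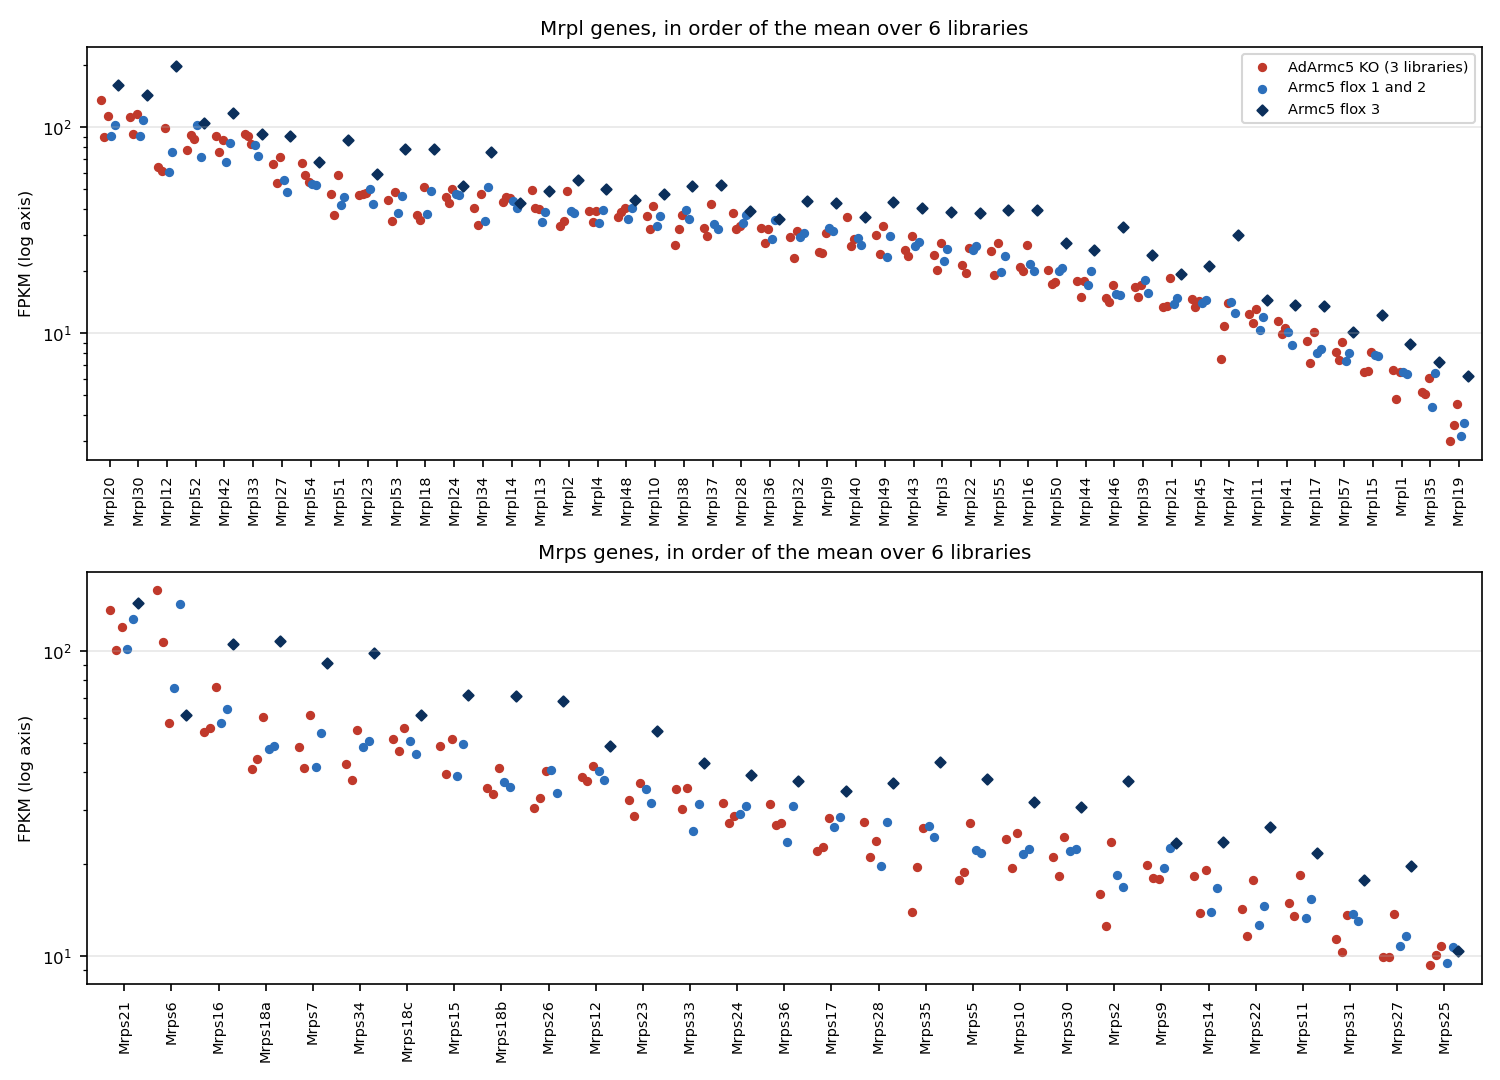
FPKM (log axis) of the 48 Mrpl genes (top) and the 29 Mrps genes (bottom), ordered by their mean over 6 libraries; each gene has 6 points, red circles for AdArmc5 KO, light blue circles for Armc5 flox replicates 1 and 2 and dark diamonds for Armc5 flox replicate 3. The diamond is the highest point of 71 of the 77 genes.

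Mrps21 (bS21) was the member with the highest mean. It had 136, 100 and 119 FPKM in AdArmc5 KO, against 101, 127 and 144 FPKM in Armc5 flox. Mrpl20 (bL20) followed with 136, 90.1 and 114 FPKM in AdArmc5 KO, against 90.2, 102 and 159 FPKM in Armc5 flox. These ranges overlap, and the order of the 3 leading members, Mrps21, Mrpl20 and Mrpl30 (a mean of 110 FPKM), is smaller than their spread over libraries. Mrpl12 (bL12), the stalk protein that brings translation factors to the ribosome, had a mean of 93.2 FPKM, and Mrps16 (bS16) one of 68.9 FPKM. At the low end stood Mrpl19 (bL19), with 3.003, 3.58 and 4.54 FPKM in AdArmc5 KO, against 3.16, 3.65 and 6.22 FPKM in Armc5 flox, and Mrpl35 (bL35), with a mean of 5.73 FPKM. The lowest Mrps genes were Mrps25 (a mean of 10.1 FPKM) and Mrps27 (12.6 FPKM), an RNA-binding protein of the small subunit. On the annotation Mrpl19 shares 1962 exon bases with Gcfc2, and Mrps25 shares 4590 with Nr2c2, both on the opposite strand. Whether the counting used strand is not given in the sources used here, so these levels are uncertain to that extent.

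No member passed the test between the genotypes. At an adjusted p under 0.05 (limma, Benjamini-Hochberg over all 12670 genes) 0 of 77 members were called, and 0 of all genes (0%), with a smallest adjusted p of 0.983 among members and 0.584 among all genes. The paper, with other tools, reported genes past a false discovery rate of 0.05 in its RNA-seq of these groups, so the 0 of all genes holds for the fit used here. At an unadjusted p under 0.05, limma gave 0 of 77 members and 425 of all genes (3.35%). The fold changes nevertheless lay mostly on one side. The log2 fold change of AdArmc5 KO over Armc5 flox was below 0 in 69 of 77 members, against 56.5% of all genes tested, in 42 of 48 Mrpl genes with a median of -0.14 and in 27 of 29 Mrps genes with a median of -0.22, where the median of all genes was -0.03. Members are not replicates, and these counts describe 6 libraries. Their direction rested on Armc5 flox replicate 3, because without this library 36 of 77 members were below 0, and the medians were 0.026 for Mrpl and -0.0022 for Mrps genes. Of all 12670 genes, 6875 were below 0 without this library, with a median of -0.018. The shift was also smaller, on the same side, without AdArmc5 KO replicate 2 alone. There 57 of 77 were below 0, with medians of -0.06 for Mrpl and -0.12 for Mrps genes, and -0.03 for all genes. With AdArmc5 KO replicate 3 left out, 69 of 77 were below 0, with medians of -0.22 for Mrpl and -0.33 for Mrps genes. Without Armc5 flox replicate 1 and AdArmc5 KO replicate 2, the libraries with Foxj1, 68 of 77 were below 0, with medians of -0.18 and -0.27. Of all 12670 genes, 6893 were below 0 in the former setting and 7127 in the latter, with medians of -0.03 and -0.04. The standard error of a single member ran from 0.11 to 0.46 with a median of 0.20. A log2 difference of the size of the medians was thus too small to detect in a single member with 3 libraries a group. In a bulk tissue, fewer cells of a type and less mRNA per cell cannot be told apart.

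**Figure D2:**
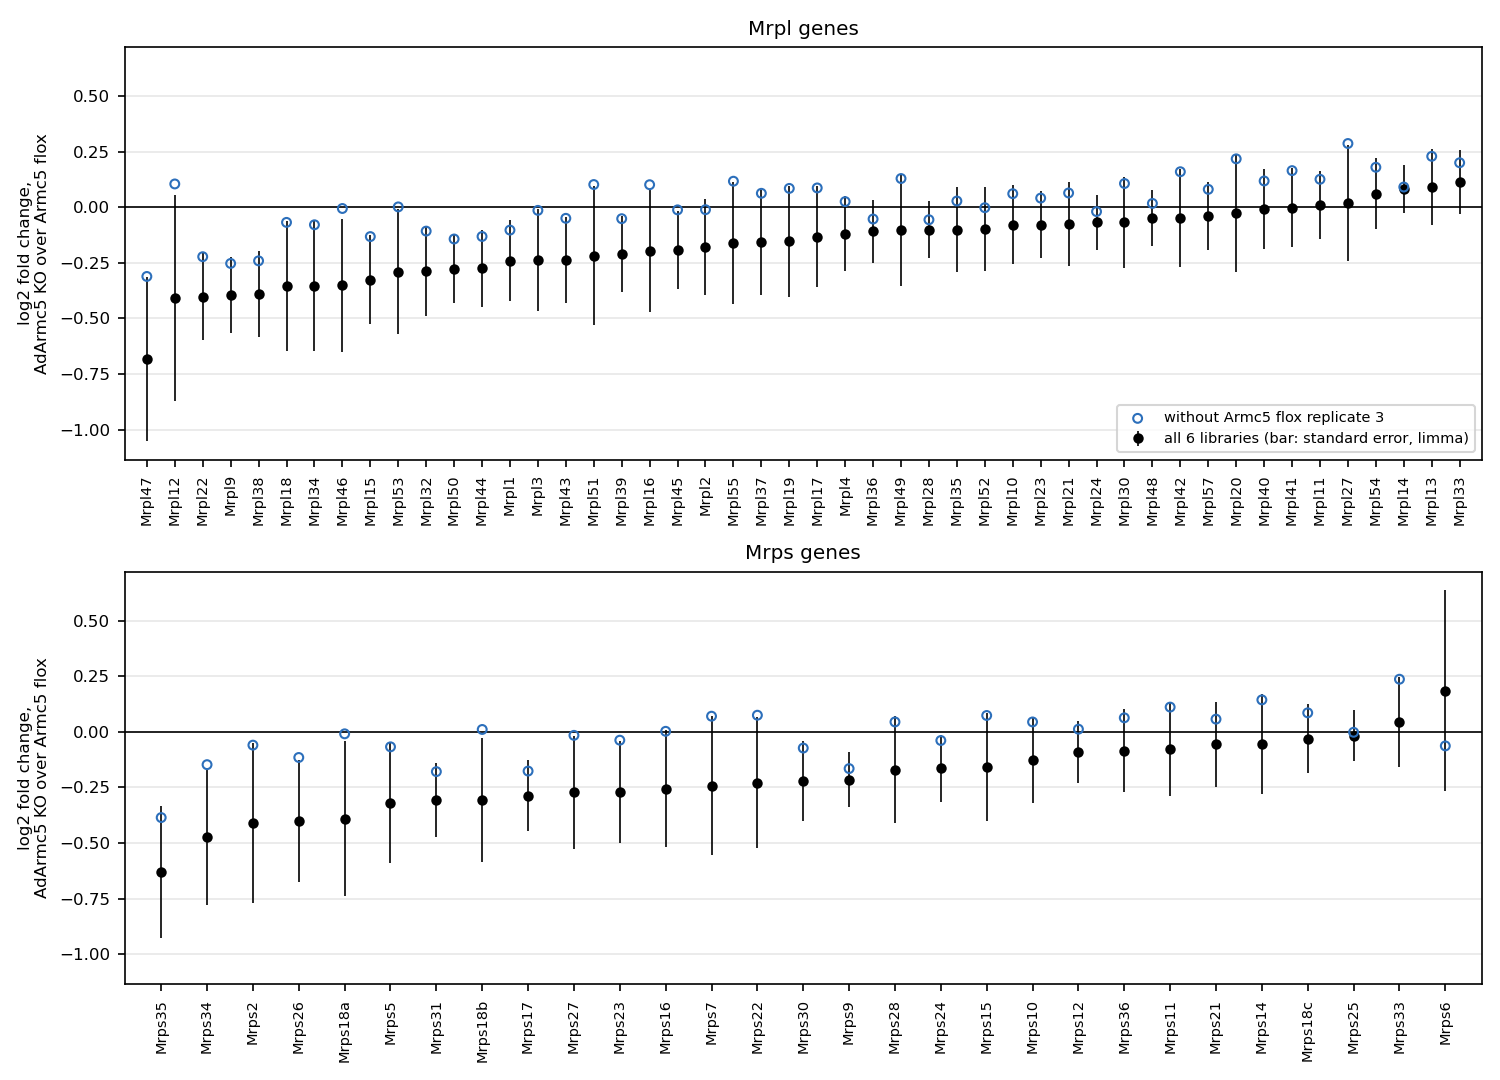
Log2 fold change of AdArmc5 KO over Armc5 flox for each Mrpl gene (top) and Mrps gene (bottom), in rising order; filled points with bars give the estimate from 6 libraries with its standard error from limma (n = 3 a group), and open circles the estimate without Armc5 flox replicate 3. Filled points lie below 0 in 69 of 77 genes and open circles in 36.

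Mrpl9 (bL9), an rRNA-binding protein of the large subunit at the base of the L1 stalk in bacteria, had the smallest p among Mrpl genes. It had 24.9, 24.4 and 30.7 FPKM in AdArmc5 KO, against 32.3, 31.3 and 42.9 FPKM in Armc5 flox, a log2 fold change of -0.39 (SE 0.17, adjusted p = 0.983 from limma). Every AdArmc5 KO library was below every Armc5 flox library, but the gap between the highest of the one and the lowest of the other was small beside the spread within each genotype. It was the only member of 77 with such a separation downwards, a pattern found in 5.26% of all genes tested, and no member had one upwards, against 3.54% of all genes. Without Armc5 flox replicate 3 its log2 fold change was -0.25. On the annotation Mrpl9 shares 157 exon bases with Oaz3 on the opposite strand.

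Members at the rim of the exit tunnel, where the new peptide leaves the ribosome, include Mrpl22 (uL22) and Mrpl47 (uL29). Mrpl22 had 21.5, 19.7 and 25.8 FPKM in AdArmc5 KO, against 25.5, 26.6 and 38.3 FPKM in Armc5 flox (log2 fold change -0.40, SE 0.20, adjusted p = 0.983 from limma). The groups overlapped by 1 library, the one labelled AdArmc5 KO replicate 3. Mrpl47 had 7.53, 10.9 and 14.1 FPKM in AdArmc5 KO, against 14.1, 12.5 and 29.98 FPKM in Armc5 flox, and its log2 fold change of -0.68 (SE 0.37) was the lowest of all members. Without Armc5 flox replicate 3 it was -0.31. Mrpl47 lies opposite Ndufb5, with which it shares 616 exon bases, and whether the counting used strand is not given in the sources used here. All 6 rim members listed (the others were Mrpl17, Mrpl23, Mrpl24 and Mrpl45) had a log2 fold change below 0, with a median of -0.16, and 4 of the 6 were still below 0 without Armc5 flox replicate 3, with a median of -0.02.

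In the central protuberance, which contacts the small subunit and the tRNAs, Mrpl38 (mL38) had 26.8, 32.1 and 37.5 FPKM in AdArmc5 KO, against 39.7, 36.0 and 52.0 FPKM in Armc5 flox. Its log2 fold change was -0.39 (SE 0.19, adjusted p = 0.983 from limma), and the groups overlapped only through the library labelled AdArmc5 KO replicate 3 and Armc5 flox replicate 2. Over the 6 protuberance members listed (Mrpl18, Mrpl27, Mrpl38, Mrpl40, Mrpl46 and Mrpl48) 5 were below 0, with a median of -0.20, and without Armc5 flox replicate 3 it was 3 of 6 with a median of 0.0054. Mrpl50 (mL50) and Mrpl15 (uL15) followed by p, at log2 fold changes of -0.28 (SE 0.15) and -0.33 (SE 0.20). Mrpl50 had 20.3, 17.4 and 17.8 FPKM in AdArmc5 KO, against 20.2, 20.8 and 27.3 FPKM in Armc5 flox. Mrpl15, a low member, had 6.496, 6.59 and 8.15 FPKM in AdArmc5 KO, against 7.86, 7.77 and 12.2 FPKM in Armc5 flox. In both, a single AdArmc5 KO library reached into the range of Armc5 flox.

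Among Mrps genes Mrps35 (mS35), a protein of the small subunit named from mitochondria, had the smallest p. It had 14.0, 19.5 and 26.3 FPKM in AdArmc5 KO, against 26.6, 24.5 and 43.1 FPKM in Armc5 flox, with a log2 fold change of -0.63 (SE 0.30, adjusted p = 0.983 from limma). Without the library labelled AdArmc5 KO replicate 3 it was -0.84, and without Armc5 flox replicate 3 it was -0.39. The AdArmc5 KO libraries alone covered a range at least as wide as the difference between the group means, and the groups overlapped. Mrps31 (mS31) had 11.4, 10.3 and 13.6 FPKM in AdArmc5 KO, against 13.7, 13.04 and 17.8 FPKM in Armc5 flox (log2 fold change -0.31, SE 0.17). Mrps17 (uS17), which in bacteria binds the rRNA early in assembly, had 22.015, 22.7 and 28.4 FPKM in AdArmc5 KO, against 26.5, 28.6 and 34.8 FPKM in Armc5 flox (log2 fold change -0.29, SE 0.16). Both overlapped through the library labelled AdArmc5 KO replicate 3 alone. Mrps9 (uS9), which in bacteria contacts the tRNA of the growing peptide, had 19.95, 17.99 and 17.9 FPKM in AdArmc5 KO, against 19.4, 22.6 and 23.4 FPKM in Armc5 flox (log2 fold change -0.22, SE 0.12), and it was the member of these 4 in which Armc5 flox replicate 3 stood least apart.

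Mrps34 (mS34) and Mrps26 (mS26) completed the 6 Mrps genes with the smallest p. Mrps34 had 42.7, 37.7 and 55.2 FPKM in AdArmc5 KO, against 48.5, 50.7 and 98.4 FPKM in Armc5 flox. Mrps26, whose promoter is printed above, had 30.6, 32.96 and 40.4 FPKM in AdArmc5 KO, against 40.8, 34.2 and 68.6 FPKM in Armc5 flox. Their log2 fold changes were -0.47 (SE 0.31) and -0.40 (SE 0.27) and, without Armc5 flox replicate 3, -0.15 and -0.12, so that most of both differences was gone without this 1 library. Mrps34 shares 763 exon bases with Nme3 on the same strand, and its level is uncertain to that extent.

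**Figure D3:**
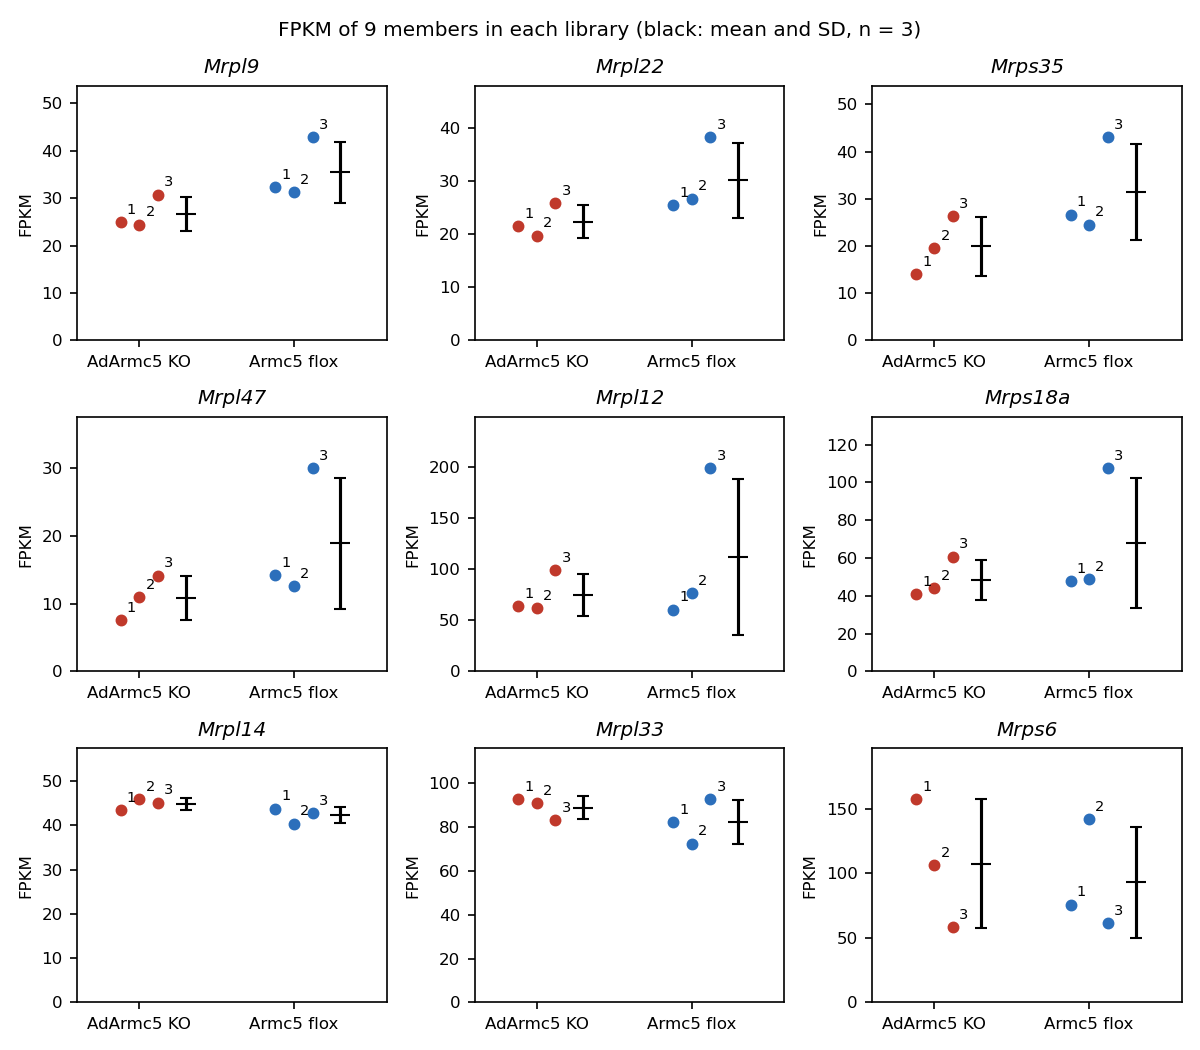
FPKM of 9 members in AdArmc5 KO (red, left) and Armc5 flox (blue, right); points are single libraries with their replicate number, and black marks give the mean and SD (n = 3). Mrpl9 is the member whose groups do not overlap, Mrpl12 reaches 199 FPKM in Armc5 flox replicate 3 against at most 98.7 FPKM elsewhere, and Mrps6 is lowest in the libraries numbered 3.

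The most regular feature of these genes was not the genotype but a single library. Of the 77 members, 71 had their highest FPKM in Armc5 flox replicate 3, against 32.4% of all genes tested, and this held for 44 of 48 Mrpl and 27 of 29 Mrps genes. The median member was 1.42 times as high there as in the median of the other 5 libraries, where the median of all genes was 1.03 times. At least 1.5 times was reached by 31 members (40.3%), against 10.8% of all genes, and at least 2 times by 8 members (10.4%), against 3.30%. AdArmc5 KO replicate 2 was the lowest library of 38 members (49.4%), against 20.3% of all genes. Among the 5 libraries without Armc5 flox replicate 3, the one labelled AdArmc5 KO replicate 3 was highest in 43 members (55.8%), against 19.4% of all genes, and the ratio of highest to lowest library had a median of 1.35 over the members.

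**Figure D4:**
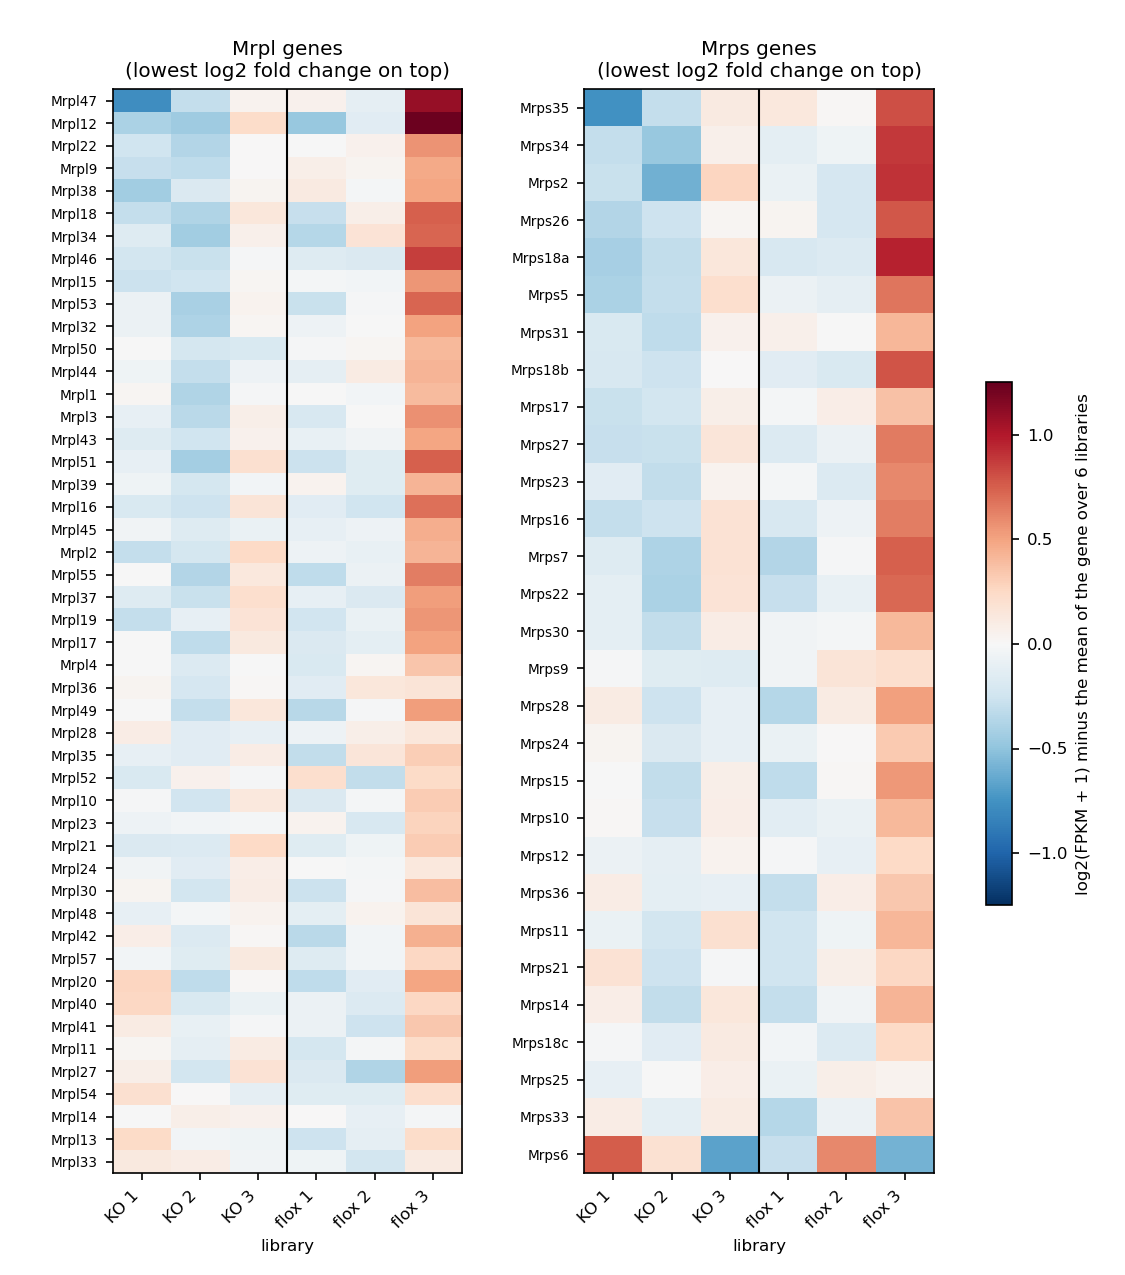
Log2(FPKM + 1) of each member in each library minus its mean over the 6 libraries (colour, red above and blue below the mean), Mrpl genes left and Mrps genes right, with the lowest log2 fold change on top; columns are the 3 AdArmc5 KO and then the 3 Armc5 flox libraries. The last column, Armc5 flox replicate 3, is the highest in 71 of 77 rows, and Mrps6 in the bottom row on the right runs the other way.

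Mrpl12 stood out most. It had 63.8, 61.6 and 98.7 FPKM in AdArmc5 KO, against 60.3, 76.2 and 199 FPKM in Armc5 flox, 3.11 times the median of the other libraries in Armc5 flox replicate 3. Its log2 fold change of -0.41 (SE 0.46) became 0.10 without that library, -0.62 without the library labelled AdArmc5 KO replicate 3 and -0.63 without the libraries that held Foxj1. In human cells this protein is also known to bind the mitochondrial RNA polymerase. Mrps18a (mL66) had 41.0, 44.1 and 60.7 FPKM in AdArmc5 KO, against 47.6, 48.8 and 108 FPKM in Armc5 flox, 2.26 times in the same library. The others that reached 2 times were Mrpl47 (2.40), Mrps2 (2.23), Mrpl46 (2.14), Mrpl18 (2.08), Mrps34 (2.03) and Mrps26 (2.01), of which Mrps2, Mrpl46 and Mrpl18 are named here after their values were seen. Members with CCGGAAG in their promoter window had a median ratio of 1.63 (n = 24) and those without it 1.39 (n = 44), with median log2 fold changes of -0.23 and -0.16. Without Armc5 flox replicate 3 these medians were 0.0062 and 0.0073. Of the motifs searched, CCGGAAG had the widest gap in this ratio. With and without the motif, the ratios were 1.46 and 1.41 for AAGATGGC, 1.41 and 1.42 for TGCGCA, 1.44 and 1.41 for GGGCGG, and 1.40 and 1.45 for CCAAT. They were 1.42 and 1.42 for GCGCATGCGC and 1.44 and 1.42 for CACGTG. These are descriptions with no test.

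The 3 paralogs of the S18 family had different ratios in that library. Mrps18a stood at 2.26 times and Mrps18b (mS40) at 1.99 times the median of the others, whereas Mrps18c (bS18), the counterpart of the bacterial protein, stood at 1.22 times. Mrps18b had 35.4, 33.97 and 41.2 FPKM in AdArmc5 KO, against 37.1, 35.9 and 71.3 FPKM in Armc5 flox. Mrps18c had 51.2, 46.8 and 56.0 FPKM in AdArmc5 KO, against 50.5, 46.0 and 61.7 FPKM in Armc5 flox. Their log2 fold changes were -0.39 (SE 0.35) for Mrps18a, -0.31 (SE 0.28) for Mrps18b and -0.03 (SE 0.15) for Mrps18c, each with overlapping groups, and without Armc5 flox replicate 3 they were -0.0092, 0.010 and 0.09.

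A few members departed from the common pattern. Mrpl14 (uL14), a protein of the subunit interface, had 43.4, 46.0 and 45.1 FPKM in AdArmc5 KO, against 43.8, 40.3 and 42.7 FPKM in Armc5 flox, with the smallest standard error of all members (log2 fold change 0.08, SE 0.11, 0.09 without Armc5 flox replicate 3). Mrpl33 (bL33) had 92.8, 90.7 and 82.9 FPKM in AdArmc5 KO, against 82.2, 72.3 and 92.5 FPKM in Armc5 flox (log2 fold change 0.11, SE 0.14), and Mrpl13 (uL13) had 49.3, 40.6 and 40.0 FPKM in AdArmc5 KO, against 34.8, 38.6 and 49.0 FPKM in Armc5 flox (0.09, SE 0.17). These were the Mrpl genes farthest above 0, and their groups overlapped. Mrpl40 (mL40), at 36.7, 26.6 and 28.7 FPKM in AdArmc5 KO, against 28.9, 26.95 and 36.6 FPKM in Armc5 flox, was highest in AdArmc5 KO replicate 1 by a margin far below its spread. Mrps25 (mS25), which shares 4590 exon bases with Nr2c2 on the opposite strand, ranged only from 9.32 to 10.8 FPKM over the 6 libraries. Mrps33 (mS33), the second Mrps gene above 0, had 35.4, 30.4 and 35.6 FPKM in AdArmc5 KO, against 25.7, 31.5 and 42.9 FPKM in Armc5 flox (log2 fold change 0.04, SE 0.20). Mrpl14 and Mrpl40 are named after their values were seen.

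Mrps6 (bS6) was the member least like the rest. It had 158, 106 and 58.1 FPKM in AdArmc5 KO, against 75.8, 142 and 61.5 FPKM in Armc5 flox, and its level in Armc5 flox replicate 3 was 0.577 times the median of the other libraries. Its libraries differed by more within a genotype than between them (log2 fold change 0.19, SE 0.45, -0.06 without Armc5 flox replicate 3, and 0.57 with AdArmc5 KO replicate 3 left out). On the annotation Mrps6 shares 159 exon bases with Slc5a3, an inositol transporter on the same strand, which had 8.85, 6.08 and 4.80 FPKM in AdArmc5 KO, against 4.30, 10.4 and 1.504 FPKM in Armc5 flox. Reads in the shared bases cannot be assigned to either gene from this table, so the level of Mrps6 is uncertain.

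Divided by structure, the 50 members of the large subunit had a median log2 fold change of -0.16, with 44 below 0, and the 26 of the small subunit one of -0.22, with 24 below 0. Without Armc5 flox replicate 3, 23 of the 50 and 13 of the 26 were below 0. The 30 members with an m name had a median of -0.23 with 28 below 0, and the 46 with a u or b name one of -0.14 with 40 below 0; without that library these were -0.0043 and 0.03, with 17 of 30 and 19 of 46 below 0. The difference between these sets was not tested.

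Proteins that build, supply or serve this ribosome were read in the same fit. None of their genes passed an adjusted p of 0.05 in either direction, and at an unadjusted p under 0.05 limma gave 3 of the 85 tested in these 6 lists (3.53%), Nsun4, Rars2 and Tfb2m, a share near the 3.35% of all genes. With the library labelled AdArmc5 KO replicate 3 left out, the medians of the 6 lists ran from -0.37 to -0.19, and without the libraries that held Foxj1 from -0.26 to -0.17. Of the 6 ribosomal proteins listed under other names (Dap3, Ptcd3, Chchd1, Aurkaip1, Gadd45gip1 and Ict1), 6 had a log2 fold change below 0, with a median of -0.21, and 6 were highest in Armc5 flox replicate 3. Gadd45gip1 (mL64) had 9.90, 10.5 and 15.6 FPKM in AdArmc5 KO, against 14.1, 12.2 and 24.1 FPKM in Armc5 flox, highest in Armc5 flox replicate 3 like Mrps26. Without Armc5 flox replicate 3, 5 of these 6 were below 0, with a median of -0.11.

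Factors that assemble the ribosome and modify its rRNA had 23 of 26 genes below 0, with a median of -0.25, and here 22 of 26 were still below 0 without Armc5 flox replicate 3, with a median of -0.17. Nsun4, the rRNA methyltransferase that works with Mterf4 in joining the subunits, had 3.58, 3.95 and 3.93 FPKM in AdArmc5 KO, against 5.20, 4.76 and 5.84 FPKM in Armc5 flox (log2 fold change -0.37, SE 0.13, adjusted p = 0.983 from limma). Rpusd4, a pseudouridine synthase, had 7.87, 6.39 and 7.32 FPKM in AdArmc5 KO, against 8.31, 8.79 and 9.42 FPKM in Armc5 flox, and Mettl17 had 5.68, 6.95 and 7.21 FPKM in AdArmc5 KO, against 7.53, 8.20 and 9.56 FPKM in Armc5 flox. In each of these 3 genes every AdArmc5 KO library was below every Armc5 flox library. This held for 5 of the 26 genes, beside 1 of 77 members and 5.26% of all genes tested.

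Translation factors had 12 of 13 genes below 0, with a median of -0.28, and 9 of 13 without Armc5 flox replicate 3, with a median of -0.08. Tsfm, which recycles the elongation factor Tufm, had 12.2, 10.4 and 14.3 FPKM in AdArmc5 KO, against 13.1, 14.9 and 20.9 FPKM in Armc5 flox (log2 fold change -0.36, SE 0.21). Oxa1l, which inserts the new peptides into the inner membrane, had 19.7, 20.3 and 27.4 FPKM in AdArmc5 KO, against 24.9, 22.5 and 40.8 FPKM in Armc5 flox. Both overlapped between the genotypes and were highest in Armc5 flox replicate 3, like most ribosomal proteins.

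Mitochondrial aminoacyl-tRNA synthetases, which charge the tRNAs of the organelle, had 15 of 20 genes below 0 with a median of -0.17, and 13 of 20 without Armc5 flox replicate 3, with a median of -0.04. Rars2, for arginine, had 11.96, 9.62 and 13.04 FPKM in AdArmc5 KO, against 14.5, 14.5 and 16.9 FPKM in Armc5 flox (log2 fold change -0.38, SE 0.15, adjusted p = 0.983 from limma). In 4 of the 20 genes, Rars2 among them, every AdArmc5 KO library was below every Armc5 flox library. This pattern was found in 5.26% of all genes tested and in 0 of the 13 translation factors. Genes for transcription of mitochondrial DNA and for stability of its RNA had 10 of 10 below 0 with a median of -0.23, and 8 of 10 without that library, with a median of -0.11. Among them Tfb2m, the factor that opens the promoter for the mitochondrial RNA polymerase, had 15.8, 15.0 and 17.1 FPKM in AdArmc5 KO, against 17.6, 21.1 and 22.9 FPKM in Armc5 flox (log2 fold change -0.34, SE 0.14). The same separation held for 2 of these 10 genes, Tfb2m among them. The mRNAs and rRNAs made inside the mitochondria were not analysed here.

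Of 10 regulators of mitochondrial biogenesis, 7 were below 0, with a median of -0.13, and 5 were highest in Armc5 flox replicate 3. Without that library 5 of 10 were below 0, with a median of -0.02. Esrra, the estrogen-related receptor alpha, a nuclear receptor that drives oxidative genes, had 18.1, 16.4 and 38.0 FPKM in AdArmc5 KO, against 20.2, 26.7 and 61.4 FPKM in Armc5 flox (log2 fold change -0.50, SE 0.49, and -0.04 without Armc5 flox replicate 3). Its libraries numbered 3 were the highest of both genotypes, as for Mrpl12. Of the factors whose motifs were searched above, Nrf1, Gabpa and Yy1 varied less between libraries than Esrra. Nrf1, which encodes nuclear respiratory factor 1 and is distinct from Nfe2l1, had 6.57, 6.75 and 5.25 FPKM in AdArmc5 KO, against 7.06, 6.20 and 7.32 FPKM in Armc5 flox, and Gabpa had 10.1, 10.7 and 12.6 FPKM in AdArmc5 KO, against 9.15, 12.3 and 14.5 FPKM in Armc5 flox. These were read because of the motifs, and Nrf1 and Gabpa are outside the naming rule.

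**Figure D5:**
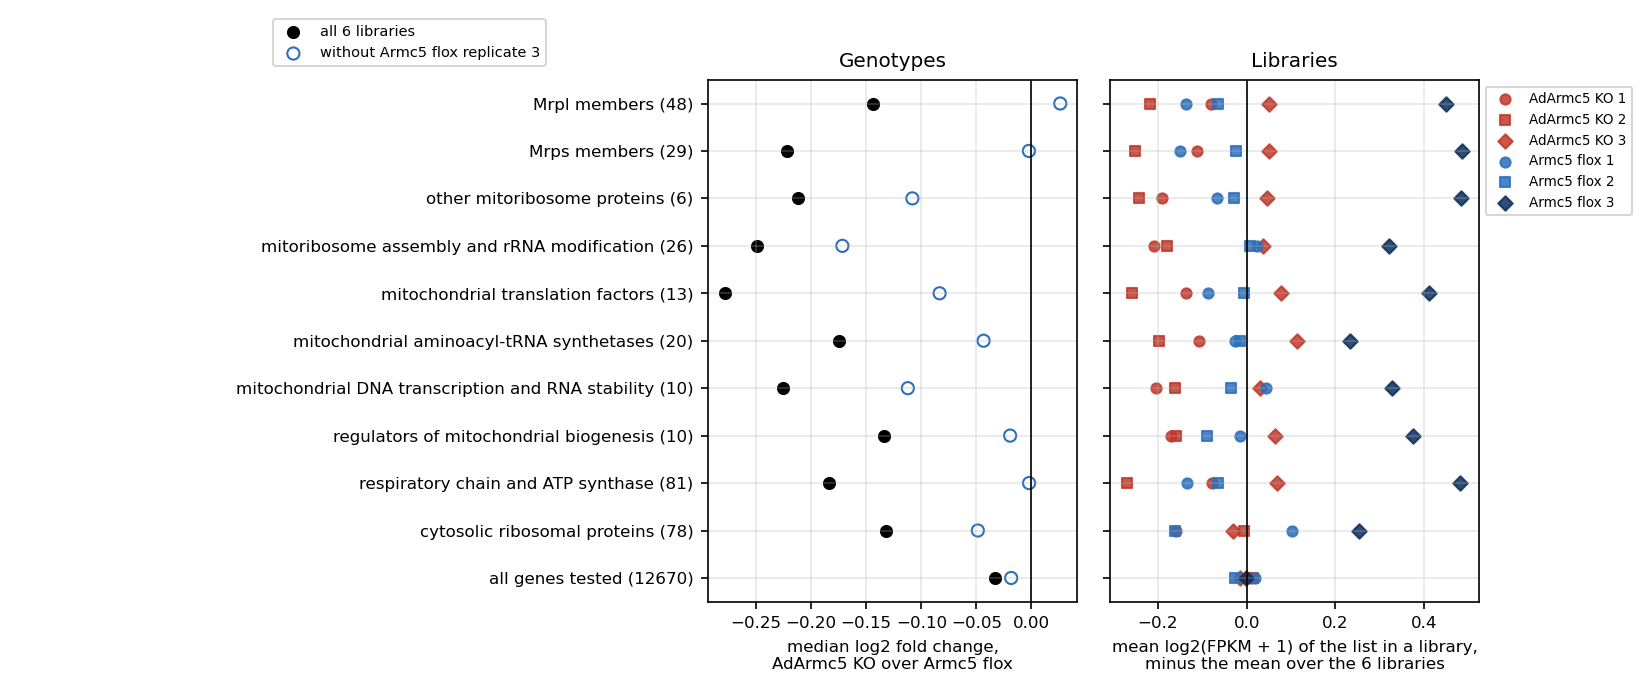
Left, the median log2 fold change of AdArmc5 KO over Armc5 flox for each list (number of genes tested in brackets), filled from 6 libraries and open without Armc5 flox replicate 3; right, the mean log2(FPKM + 1) of the same genes in each library (red AdArmc5 KO, blue Armc5 flox) minus its mean over the 6 libraries. The medians of Mrpl and Mrps genes lie at -0.14 and -0.22 when filled and at 0.026 and -0.0022 when open, and Armc5 flox replicate 3 is the rightmost point of every list except all genes tested.

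Nuclear genes of the respiratory chain and of ATP synthase, to which this ribosome contributes core subunits, had nearly the same picture. Of 81 such genes, taken by symbol, 77 were below 0, with a median log2 fold change of -0.18, and 76 were highest in Armc5 flox replicate 3, at a median of 1.47 times the other libraries. Without that library 43 of 81 were below 0, with a median of -0.0021. Proteins of the cytosolic ribosome, which is built in another compartment, had 75 of 78 genes below 0, with a median of -0.13, and 59 of 78 were highest in Armc5 flox replicate 3, at a median of 1.20 times. Without that library 55 of 78 were below 0, with a median of -0.05. Neither list held a gene past an adjusted p of 0.05 or an unadjusted p under 0.05 by limma, and the differences between the lists were not tested.

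Cell markers varied beside these values. Mean log2(FPKM + 1) of the 12 adipocyte markers was 10.78, 10.20 and 10.64 in AdArmc5 KO, against 10.37, 10.96 and 10.87 in Armc5 flox, lowest in AdArmc5 KO replicate 2 and Armc5 flox replicate 1. AdArmc5 KO replicate 2 was also the lowest library of 38 members, but Armc5 flox replicate 1 was the lowest of 15 (19.5%, against 19.7% of all genes) and AdArmc5 KO replicate 1, high in these markers, of 14 (18.2%, against 19.8% of all genes). The 12 macrophage markers stood at 6.28, 5.86 and 5.74 in AdArmc5 KO, against 5.33, 6.13 and 5.28 in Armc5 flox. Summed levels were 1290 to 2246 FPKM in AdArmc5 KO and 1023 to 1982 FPKM in Armc5 flox. Highest in Armc5 flox replicate 3 were 0 of 12 macrophage, 5 of 12 adipocyte and 4 of 8 endothelial markers. Log2 fold changes were above 0 in 11 of 12 macrophage markers, with a median of 0.46. They were below 0 in 8 of 8 endothelial and 7 of 12 adipocyte markers, with medians of -0.15 and -0.23. Without Armc5 flox replicate 3 the macrophage count stayed at 11 (median 0.24), and the other counts were 6 and 7. None of these markers passed the adjusted threshold. The 9 skeletal muscle markers stood at 1.36, 1.21 and 2.12 in AdArmc5 KO, against 1.24, 1.35 and 1.01 in Armc5 flox. Their summed levels ordered the libraries differently, at 153, 164 and 135 FPKM in AdArmc5 KO, against 266, 814 and 41.8 FPKM in Armc5 flox. The part of cell makeup in the pattern of the ribosomal genes was not tested.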

How the data were processed

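Polyadenylated RNA of 6 libraries was sequenced as stranded, paired-end libraries. Mapping to mm10 used TopHat2 2.0.13, Bowtie2 2.2.3 and SAMtools 0.1.19, after which the authors made FPKM values and normalized counts with Cuffnorm 2.2.1, as the methods and the submitters' notes state. The deposited FPKM carry the scaling between libraries of that tool, and the deposited normalized counts are a signal in which fragments are scaled per library. Of these counts, 98.7% to 99.0% above 0 were within 0.1 of a whole multiple of 1 fragment, which gave the depths, but the rest were not whole, and no count test was run. The authors' fold changes and p-values per gene, means per group and 6 columns of log2 values per sample were not used.

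The scale was log2(FPKM + 1), and genes entered when 3 or more libraries had an FPKM of 1 or more (12670 genes), so that a fold change of a low gene is understated. The linear model had genotype alone and a mean-variance trend (limma 3.58.1, R 4.3.3), two-sided, with p-values adjusted over all genes tested by the method of Benjamini and Hochberg; it was tested on simulated data. Groups and replicate numbers came from the labels. p-values measure the spread between 3 mice a group.

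Members and lists were chosen with earlier results of these data known. Genes named are, of Mrpl and Mrps genes each, the 6 with the smallest p, the 2 farthest above 0, the 3 highest and the 2 lowest by mean FPKM, the S18 paralogs, Armc5, and up to 3 genes of each list with the smallest p; others are marked. Promoters are RefSeq windows of GRCm38.p6, the first listed per gene, which began at the outermost annotated start in 47 of 68 members. Overlaps come from GENCODE gene models for mm10. Alternatives tried were a pseudocount of 0.1, no filter, TMM rescaling (a trimmed mean of M values), quantile normalization, no trend, a replicate block, every library left out in turn, Armc5 flox replicate 1 left out with AdArmc5 KO replicate 2, and, chosen after seeing the data, log2(normalized count + 1) with a minimum of 10.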

Additional observations from a re-analysis of the deposited data

How the results depend on the processing

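No member and no gene passed an adjusted p of 0.05 under any setting run with limma, in which the smallest adjusted p of a member was 0.783 (without Armc5 flox replicate 1). The count of members below 0 was 65 of 77 after rescaling with TMM (a trimmed mean of M values) and after quantile normalization, and 69 with a pseudocount of 0.1, no filter, no trend, the replicate block or normalized counts. Leaving out 1 library (or the pair of Armc5 flox replicate 1 and AdArmc5 KO replicate 2) gave 21 to 46 of 48 Mrpl and 15 to 28 of 29 Mrps genes below 0 and medians from -0.26 to 0.026 for Mrpl and from -0.35 to -0.0022 for Mrps genes, with the values nearest to or above 0 all without Armc5 flox replicate 3, the other libraries giving 57 to 73 of 77. Members with an unadjusted p under 0.05 numbered 6 with the replicate block (Mrps35, Mrpl9, Mrpl47, Mrpl22, Mrps2 and Mrpl38, adjusted p = 0.964 from limma), 0 to 2 with 1 library left out and 0 otherwise; no adjusted call was gained or lost by the block. Deviations of samples of the same number from their group means correlated at -0.53, -0.41 and 0.58. These values are too few and too mixed to settle whether the numbers mark pairs, and no label says so. Log2 fold changes of some named members changed sign, among them Mrpl12, Mrps18b and Mrps16, which were not near 0 and crossed it without Armc5 flox replicate 3. With libraries so left out the values of such members ran from -0.75 to 0.10 for Mrpl12, -0.013 to 0.23 for Mrpl13, -0.31 to 0.084 for Mrpl19, -0.19 to 0.22 for Mrpl20, -0.22 to 0.11 for Mrpl30, -0.28 to 0.028 for Mrpl35, -0.14 to 0.12 for Mrpl40, -0.15 to 0.57 for Mrps6, -0.42 to 0.0021 for Mrps16, -0.48 to 0.010 for Mrps18b, -0.12 to 0.085 for Mrps18c, -0.19 to 0.057 for Mrps21, -0.066 to 0.032 for Mrps25 and -0.12 to 0.24 for Mrps33. After TMM rescaling, Mrpl20 was at 0.0047, Mrps25 at 0.0098 and Mrpl40 at 0.020, and after quantile normalization Mrps25 was at 0.0027 and Mrpl40 at 0.047. Without Armc5 flox replicate 1 and AdArmc5 KO replicate 2, Mrps33 was at -0.050, Mrps18c at 0.0067 and Mrpl40 at 0.045. Beyond the construction of these fits the causes were not tested. The planned count test was not run, for want of whole fragments at every gene. FPKM come without an estimate of their counting error, though they hold such error, and a member rested on 126 to 4159 fragments a library. With 3 libraries a group, differences below the standard errors given were not detectable.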

Other observations

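Many members share their promoter region with another gene. In the GENCODE annotation of mm10, 18 of 77 members (23.4%) had a start within 1000 bases of the start of a gene on the opposite strand that runs away from it, counted where the outermost annotated starts do not overlap, against 6.79% of 21951 protein-coding genes. That background includes genes not tested here, whereas all members were tested, and the share over tested genes was not counted. The members Mrpl46 and Mrps11 also lie head to head, but their outermost starts overlap in this annotation, and they are not in the count. Mrps12 (uS12), the decoding protein of the small subunit, began 172 bases from Sars2, the mitochondrial seryl-tRNA synthetase, Mrpl32 began 75 bases from the proteasome gene Psma2, and Mrps34 began 29 bases from Eme2. Of the 18 partners, 16 were tested. Of these, 10 (62.5%) were below 0 with a median log2 fold change of -0.09, against 56.5% of all genes tested. Highest in Armc5 flox replicate 3 were 8 (50%), against 71 of 77 members and 32.4% of all genes. Sars2 had 4.21, 4.92 and 6.92 FPKM in AdArmc5 KO, against 4.06, 4.01 and 8.06 FPKM in Armc5 flox, where Mrps12 had 38.6, 37.6 and 42.1 FPKM in AdArmc5 KO, against 40.3, 37.9 and 48.7 FPKM in Armc5 flox. Both were highest in Armc5 flox replicate 3. Lrrc46, the divergent partner of Mrpl10, went with the libraries that held Foxj1, at 0.297, 7.55 and 0.241 FPKM in AdArmc5 KO, against 7.22, 0.095 and 0.165 FPKM in Armc5 flox, while Mrpl10 had 37.2, 31.9 and 41.5 FPKM in AdArmc5 KO, against 33.2, 37.1 and 47.3 FPKM in Armc5 flox. Partners were chosen by position alone, and the genes named here were picked after their values were seen.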
